A study of Homo sapiens with 4 samples.

Results

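The 10 genes described here are ERK pathway feedback genes, chosen by name: the phosphatase genes DUSP4, DUSP5 and DUSP6, the Sprouty genes SPRY2 and SPRY4, the Sprouty-related genes SPRED1 and SPRED2, the ETS factor genes ETV4 and ETV5, and PHLDA1. They are 10 of the 63856 genes in the deposited count table, and all 10 were among the 15830 genes kept by the low-count filter of edgeR. RNA was sequenced from MCF10A cells, an established non-tumorigenic human breast epithelial line, as wild type (WT) cells without a vector and as cells stably overexpressing HSF1 after lentiviral transduction with HSF1-pLVX and selection in puromycin, with 2 libraries each. Both variants grew in the same medium, with horse serum at 5%, hydrocortisone at 0.5 µg/ml, cholera toxin, insulin at 5 µg/ml and EGF at 20 ng/ml, so every library came from cells supplied with an ERK-activating growth factor. Empty-vector cells were not analysed here, so overexpressed HSF1 cannot be told apart from transduction, selection or separate culture. These are bulk samples, in which fewer cells expressing a gene and less RNA of it per cell cannot be told apart.

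In epithelial cells, EGF binds its receptor, which acts through the small GTPases of the RAS family and the kinases RAF, MEK and ERK. Active ERK raises the transcription of a group of genes whose products act back on the same cascade, and the RNA level of this group is widely read as a mark of ERK activity. DUSP4 and DUSP5 are nuclear phosphatases that act on MAP kinases, DUSP6 is the cytoplasmic phosphatase of ERK, and Sprouty and SPRED proteins restrain the step from receptor to RAF. ETV4 and ETV5 are transcription factors of the PEA3 group that carry the response onward, and PHLDA1 is a pleckstrin homology-like protein induced by growth factors. RNA levels do not measure the phosphorylation of ERK.

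HSF1 itself had 194.8 ± 7.94 CPM in WT and 990.5 ± 11.5 CPM in HSF1-pLVX cells (SD, n = 2 each), where CPM is a gene's count scaled to library size with TMM factors. Library totals lay between 18688109 and 24184285 counts, and the TMM factors between 0.963 and 1.04. The luminal markers KRT8, KRT18, EPCAM and CDH1 were all lower in HSF1-pLVX cells, with a summed level of 5782 and 5905 CPM in WT and 1331 and 1107 CPM in HSF1-pLVX libraries. Of the basal markers, KRT5, TP63 and ITGA6 were higher and KRT14 and KRT17 lower. Summed over 7 fibroblast markers the level was 7.77 and 10.8 CPM in WT and 14.9 and 13.9 CPM in HSF1-pLVX libraries, and of the 2 tested, DCN was higher and COL1A1 not called. DCN had 1 and 3 counts in WT and passed the filter only through the HSF1-pLVX libraries, where it was higher. No endothelial or leukocyte marker passed the filter, and PTPRC, which marks all leukocytes, had 0 counts in each library. These marker shifts separate the same libraries as the differences given here, and their part in those differences was not tested.

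The feedback genes did not move as one group. DUSP4, SPRY2 and SPRY4 fell more than 2-fold in HSF1-pLVX cells, ETV4 and SPRED2 fell by less, and DUSP6 and PHLDA1 rose. At an adjusted p of 0.05 (edgeR quasi-likelihood test, Benjamini-Hochberg over all tested genes), 5 of the 10 genes were lower and 2 higher, while DUSP5, SPRED1 and ETV5 were not called. Of all tested genes, 65.9% were called, 33.2% lower and 32.7% higher, so 7 of 10 is close to the background. With a change of at least 2-fold added, 3 genes were lower and 1 was higher, against 14.0% and 14.9% of all tested genes. Over the 10 genes the median log2 fold change stood at -0.27, beside 0.02 over all tested genes, and their range ran from -2.60 for DUSP4 to 1.05 for PHLDA1. In 9 of the 10 genes the 4 values did not overlap between the variants, 2 being higher and 7 lower in HSF1-pLVX cells, and the exception was DUSP5. Of all tested genes, 83.1% did not overlap, 42.1% higher and 41.0% lower. A permutation of 2 libraries against 2 cannot go below an exact p of 0.333. The edgeR test borrows the spread of other genes, and its p-values rest on that shared spread.

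**Figure D1:**
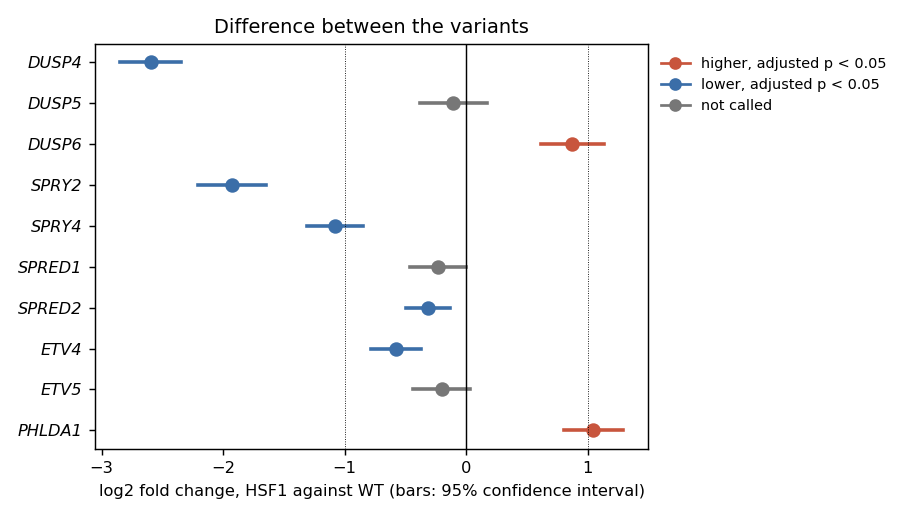
Log2 fold change of each feedback gene in HSF1-pLVX against WT cells (x axis, dots) with its 95% confidence interval (bars), from edgeR's quasi-likelihood fit on 2 libraries per variant; dotted lines mark 2-fold. Red dots are called higher, blue dots lower and grey dots not called; DUSP4 lies lowest at -2.60 and PHLDA1 highest at 1.05.

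The RefSeq promoter windows of the genes that rose, DUSP6 and PHLDA1, and of both Sprouty genes that fell are printed so that the opposite directions can be set beside the sequence around each start site. Each window runs from 250 bases before to 50 bases after an annotated start, on the minus strand of GRCh38.p14, 5′ to 3′. The DUSP6 window is chr12:89352452-89352751, that of PHLDA1 chr12:76031727-76032026, that of SPRY2 chr13:80341077-80341376 and that of SPRY4 chr5:142324198-142324497. Capitals mark the letters CCGGAA on either strand, a core of the sites that ETS factors bind.
DUSP6: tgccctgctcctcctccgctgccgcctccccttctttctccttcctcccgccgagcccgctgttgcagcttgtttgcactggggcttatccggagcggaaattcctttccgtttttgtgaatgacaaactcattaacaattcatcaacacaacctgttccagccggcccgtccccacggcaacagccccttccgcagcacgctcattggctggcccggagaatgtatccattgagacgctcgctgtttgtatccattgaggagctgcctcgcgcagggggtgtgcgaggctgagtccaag
PHLDA1: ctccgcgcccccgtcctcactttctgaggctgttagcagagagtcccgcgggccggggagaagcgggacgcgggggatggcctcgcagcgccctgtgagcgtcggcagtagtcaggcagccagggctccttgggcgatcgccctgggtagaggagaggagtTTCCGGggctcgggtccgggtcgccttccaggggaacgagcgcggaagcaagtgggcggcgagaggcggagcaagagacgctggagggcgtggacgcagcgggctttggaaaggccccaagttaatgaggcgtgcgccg
SPRY2: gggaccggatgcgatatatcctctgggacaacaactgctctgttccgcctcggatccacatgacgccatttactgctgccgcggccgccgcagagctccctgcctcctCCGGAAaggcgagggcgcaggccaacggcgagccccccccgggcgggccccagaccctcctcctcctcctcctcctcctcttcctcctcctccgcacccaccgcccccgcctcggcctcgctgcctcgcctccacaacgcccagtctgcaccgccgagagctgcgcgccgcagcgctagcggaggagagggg
SPRY4: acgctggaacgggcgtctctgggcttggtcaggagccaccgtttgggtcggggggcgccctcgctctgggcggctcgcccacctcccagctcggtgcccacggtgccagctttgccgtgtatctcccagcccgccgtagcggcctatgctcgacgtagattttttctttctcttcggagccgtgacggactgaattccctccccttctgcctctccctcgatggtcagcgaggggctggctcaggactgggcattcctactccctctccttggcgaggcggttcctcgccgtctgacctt
Of the 10 genes, 6 had a window, SPRED1 and SPRED2 among them, while DUSP4, DUSP5, ETV4 and ETV5 had none. For SPRY2 the window nearest to the counted gene end was taken from 3. The annotated start lay 2208 bases from the counted 5′ gene end for SPRY4, 2156 for PHLDA1, 770 for DUSP6 and 175 for SPRY2. None of the 6 windows held GAANNTTC or TTCNNGAA, arrangements of the heat shock element bound by HSF1, which 6.77% and 7.74% of 35116 windows of the same length held. Either was in 13.5% of all windows, so the lack of a match in 6 windows tells little. TGACGTCA (1.85% of all windows), TGANTCA (7.71%) and CCGGAAG (10.3%) were also without a match in the 6 windows. The shorter CCGGAA, added after CCGGAAG had given no match and contained in it, was found once in the SPRY2 window, from base -142 before the start, and once in the PHLDA1 window, from base -89, and 17.2% of all windows held it. It thus occurred in a gene that fell and in a gene that rose.

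DUSP4 (ENSG00000120875.8), on chromosome 8 of hg38 from 29333064 to 29350668, fell most of the 10 genes. Its level was 414.7 and 445.9 CPM in WT replicates 1 and 2 and 79.3 and 62.7 CPM in HSF1-pLVX replicates 1 and 2. The level was thus 6.05-fold lower (95% confidence interval 5.09 to 7.19), or -2.60 on the log2 scale (standard error 0.116, adjusted p = 1.8e-10), and 531 of the 15830 tested genes had a lower one. These levels rest on 7785 and 8285 counts in WT and 1991 and 1246 in HSF1-pLVX libraries. The HSF1-pLVX libraries differed from each other by 0.34 on the log2 scale, and the log2 difference between variants was -2.39 within replicate 1 and -2.83 within replicate 2.

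DUSP6 (ENSG00000139318.7), on chromosome 12 from 89347232 to 89353271, moved the other way. It had 62.4 and 84.8 CPM in WT and 128.4 and 141.3 CPM in HSF1-pLVX cells. Both HSF1-pLVX libraries lay above both WT libraries, at 1.83-fold (95% confidence interval 1.53 to 2.19), or 0.87 on the log2 scale (standard error 0.120, adjusted p = 1.73e-05). A gene without a name on the opposite strand, ENSG00000274021, covers 1875 of the 4632 counted bases of DUSP6 and had between 13 and 44 counts. Whether strand was used in counting is not given in the sources used here, so reads in that stretch could have been given to either gene or to neither.

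DUSP5 (ENSG00000138166.5), on chromosome 10 from 110497838 to 110511544, was the gene whose variants overlapped. It had 32.1 and 44.6 CPM in WT and 33.7 and 37.7 CPM in HSF1-pLVX cells. Its log2 fold change was -0.11 (95% confidence interval -0.38 to 0.17, adjusted p = 0.486), an interval that reaches down to a 1.30-fold lower level. Without WT replicate 1 it was -0.31 and without WT replicate 2 it was 0.13, so its direction rested on which WT library was used.

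Compared per base of counted exon within each library, which no scaling between libraries can move, DUSP4 made up 69.0 and 63.5% of the counts of the DUSP4, DUSP5 and DUSP6 genes in WT replicates 1 and 2 and 21.2 and 16.1% in HSF1-pLVX replicates 1 and 2. DUSP6 took 16.2 and 18.9% in WT and 53.8 and 56.9% in HSF1-pLVX libraries. The ratio of DUSP4 to DUSP6 per base was 4.24 and 3.36 in WT and 0.394 and 0.283 in HSF1-pLVX libraries. Of these 3 genes, DUSP4 thus took the largest share in both WT libraries and DUSP6 in both HSF1-pLVX libraries. DUSP1, a MAP kinase phosphatase gene outside the 10, was above all 3 per kilobase in each library, at 109.3 and 203.5 CPM per kilobase in WT and 80.5 and 88.0 in HSF1-pLVX libraries. Summed per kilobase, the level of these 3 genes was 82.9 and 96.8 CPM in WT and 51.5 and 53.6 CPM in HSF1-pLVX libraries.

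**Figure D2:**
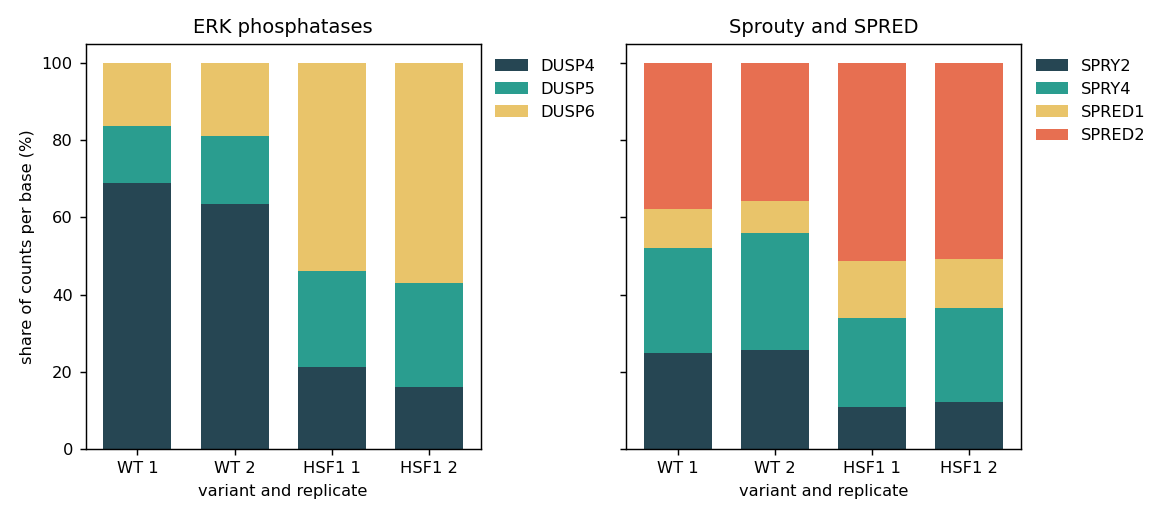
Share of counts per base of counted exon (y axis, %) that each gene takes within its set in each library (x axis, WT and HSF1-pLVX replicates 1 and 2), for the phosphatase genes (left) and for the Sprouty and SPRED genes (right). DUSP4 takes 69.0 and 63.5% in WT and 21.2 and 16.1% in HSF1-pLVX libraries, while DUSP6 and SPRED2 take larger shares there.

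Among the genes that act between receptor and RAF, SPRY2 (ENSG00000136158.11), on chromosome 13 from 80335976 to 80340951, fell most. It had 21.6 and 24.9 CPM in WT and 5.86 and 6.39 CPM in HSF1-pLVX cells, values that are close within each variant and far apart between them. Its level was 3.80-fold lower (95% confidence interval 3.13 to 4.61), or -1.93 on the log2 scale (standard error 0.130, adjusted p = 1.14e-08). HSF1-pLVX replicate 2 held 127 counts of SPRY2, the smallest count of any of the 10 genes, with an exact Poisson 95% interval of 105.9 to 151.1 that covers counting error only.

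SPRY4 (ENSG00000187678.8), on chromosome 5 from 142310427 to 142326455, had 46.5 and 57.9 CPM in WT and 24.2 and 25.2 CPM in HSF1-pLVX cells. It was 2.11-fold lower, or -1.08 on the log2 scale (95% confidence interval -1.31 to -0.85, standard error 0.108, adjusted p = 7.05e-07). SPRY2 and SPRY4 thus fell together, each below both WT values in both HSF1-pLVX libraries.

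The SPRED genes encode relatives of Sprouty that bring the RAS inactivator neurofibromin to the membrane, and they moved far less. SPRED2 (ENSG00000198369.9), on chromosome 2 from 65310851 to 65432637, had 55.8 and 58.9 CPM in WT and 46.8 and 45.6 CPM in HSF1-pLVX cells, or -0.31 on the log2 scale (standard error 0.0839, adjusted p = 0.00456). Without HSF1-pLVX replicate 2 its log2 fold change was -0.28. SPRED1 (ENSG00000166068.12), on chromosome 15 from 38252326 to 38357249, had 24.3 and 22.5 CPM in WT and 21.3 and 18.5 CPM in HSF1-pLVX cells. Its log2 fold change of -0.23 (95% confidence interval -0.46 to 0.00094) was not called, with an adjusted p of 0.0738. Without WT replicate 2 the log2 fold change of SPRED1 was -0.30.

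Within the set of SPRY2, SPRY4, SPRED1 and SPRED2, the share of SPRY2 per base went from 24.7 and 25.5% in WT to 10.9 and 12.1% in HSF1-pLVX libraries. SPRED2 took 37.7 and 35.6% in WT and 51.4 and 50.7% in HSF1-pLVX libraries and was the largest of the set in each library. The summed level of the set per kilobase was 28.7 and 32.1 CPM in WT and 17.7 and 17.4 CPM in HSF1-pLVX libraries.

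ETV4 (ENSG00000175832.12), on chromosome 17 from 43527844 to 43579620, fell by an amount between those of SPRED2 and SPRY4. It had 32.7 and 34.6 CPM in WT and 23.2 and 21.8 CPM in HSF1-pLVX cells, a level 1.49-fold lower (95% confidence interval 1.29 to 1.72), with a log2 fold change of -0.58, a standard error of 0.0954 and an adjusted p of 9.61e-05. ETV5 (ENSG00000244405.7), on chromosome 3 from 186046308 to 186110318, had 18.2 and 20.0 CPM in WT and 16.8 and 16.4 CPM in HSF1-pLVX cells. Its log2 fold change of -0.20 (95% confidence interval -0.43 to 0.03) was not called (adjusted p = 0.121). The interval reaches down to a 1.35-fold lower level.

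PHLDA1 (ENSG00000139289.13), on chromosome 12 from 76025447 to 76033932, showed the largest rise. It had 78.0 and 101.3 CPM in WT and 192.5 and 177.9 CPM in HSF1-pLVX cells. Both HSF1-pLVX values lay above both WT values, at 2.07-fold (95% confidence interval 1.75 to 2.44), or 1.05 on the log2 scale (standard error 0.113, adjusted p = 1.50e-06). The log2 difference was 1.30 within replicate 1 and 0.81 within replicate 2. By the ratio rule of the study (over 2.0 or under 0.50 within each replicate number, on the authors' normalized table), DUSP4 and SPRY2 were down and 0 of the 10 genes up, against 6.42% and 5.0% of the 22321 entries of that table.

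Per kilobase of counted exon, the order of levels in WT cells was led by DUSP4 at 59.3 ± 3.04 CPM per kilobase (SD, n = 2). DUSP6 (15.9 ± 3.43) and DUSP5 (14.7 ± 3.39) followed with ranges that overlapped each other, then SPRED2 (11.1 ± 0.419) and PHLDA1 (11.1 ± 2.05), whose ranges overlapped too. ETV4 (9.32 ± 0.362), SPRY4 (8.80 ± 1.36) and SPRY2 (7.64 ± 0.766) each overlapped the next in order, and ETV5 (3.30 ± 0.220) and SPRED1 (2.84 ± 0.158) came last. In HSF1-pLVX cells DUSP6 led at 29.1 ± 1.97, followed by PHLDA1 (22.9 ± 1.28) and DUSP5 (13.6 ± 1.09). DUSP4 (9.79 ± 1.62) and SPRED2 (8.96 ± 0.171) came next with overlapping ranges, and SPRY2 (2.02 ± 0.125) was last.

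**Figure D3:**
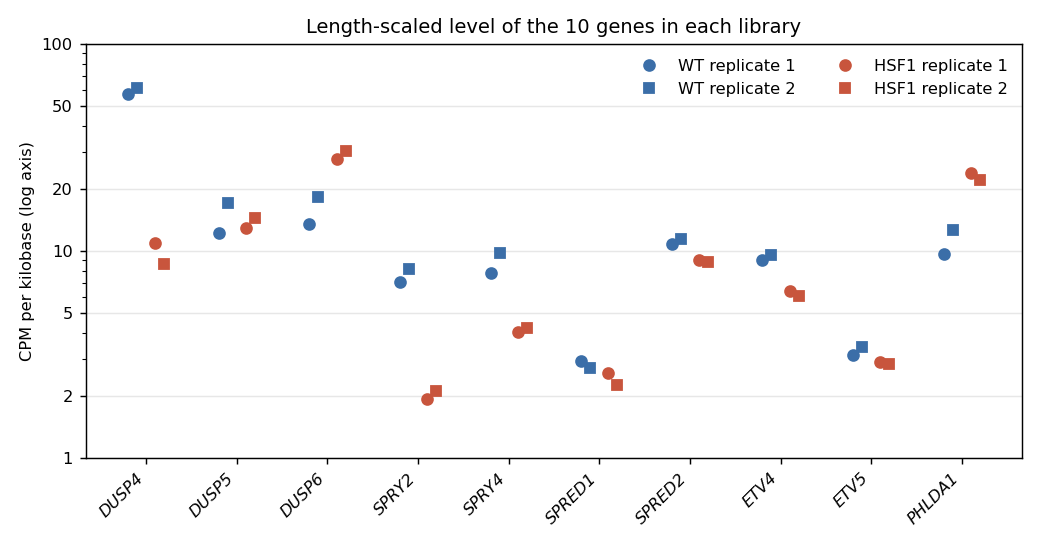
Level of each feedback gene (x axis) in CPM per kilobase of counted exon (y axis, log scale) in each library; blue marks are WT, red marks HSF1-pLVX, circles replicate 1 and squares replicate 2. DUSP4 leads in WT cells at 59.3 CPM per kilobase on average, DUSP6 leads in HSF1-pLVX cells at 29.1, and the colours overlap for DUSP5 alone.

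The WT libraries themselves differed in several of these genes. WT replicate 2 was higher than replicate 1 for 9 of the 10 feedback genes, and for 46.2% of the 9118 tested genes with a mean of at least 10 CPM. On the log2 scale the difference was 0.48 for DUSP5, 0.44 for DUSP6, 0.38 for PHLDA1 and 0.32 for SPRY4. Of the 9118 genes, 1.55% had a larger difference of either sign than DUSP5, 1.97% than DUSP6, 3.52% than PHLDA1 and 6.09% than SPRY4. ETV4 and SPRED2 differed by 0.08 each, DUSP4 by 0.10 and SPRED1 by -0.11. Between the HSF1-pLVX libraries 4 of the 10 genes were higher in replicate 2, as were 48.5% of the 9118 genes. There the difference was 0.14 for DUSP6 and -0.34 for DUSP4, and 4.72% of the 9118 genes had a larger difference of either sign than DUSP4.

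Of the other ERK output genes listed further on, 13 of 17 tested were higher in WT replicate 2 than in replicate 1, as were 6 of 8 tested relatives of the feedback genes, and CIC, ELK1, ELK3 and ETS1 were lower. The 3 genes given here were chosen after their values were seen. EGR1, an early zinc finger factor, had 44.8 CPM in WT replicate 1 and 127.4 in replicate 2, and FOS, a subunit of AP-1, had 72.3 and 176.4 CPM. The log2 difference was 1.51 for EGR1 and 1.29 for FOS, and 0.011% and 0.0548% of the 9118 genes had a larger one. DUSP1, the early phosphatase of several MAP kinases, had 220.8 and 410.8 CPM, a difference of 0.90. The part of this WT difference in the comparison of the variants was not tested. Without WT replicate 1 the log2 fold change was 0.68 for DUSP6, 0.88 for PHLDA1 and -1.21 for SPRY4, and without WT replicate 2 it was 1.09, 1.23 and -0.93.

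**Figure D4:**
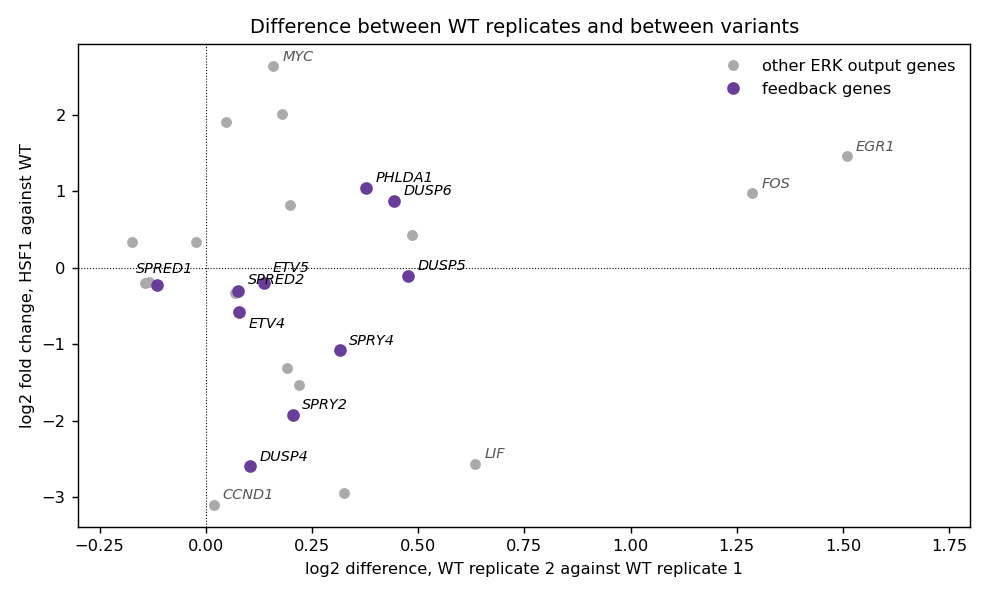
Log2 fold change in HSF1-pLVX against WT cells (y axis) and log2 difference of WT replicate 2 against WT replicate 1 (x axis), for the feedback genes (purple) and for other ERK output genes (grey), one dot per gene. EGR1 and FOS lie far to the right at 1.51 and 1.29, and DUSP5, DUSP6 and PHLDA1 lie between 0.38 and 0.48. DUSP4 and CCND1, each the steepest fall of its own list, lie near 0, while EPHA4 and LIF, which also fell steeply, lie at 0.33 and 0.63.

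Other genes of the pathway were taken from 4 lists of textbook members. Of 8 tested relatives of the feedback genes, 4 were lower and 1 higher, with a median log2 fold change of -0.32, where 33.2% of all tested genes were lower and 32.7% higher. DUSP10, a phosphatase of the stress kinases p38 and JNK, fell from 66.4 and 71.4 CPM to 23.0 and 17.9 CPM (log2 fold change -1.75, adjusted p = 5.75e-09), and SPRED3 from 15.2 and 15.1 CPM to 6.17 and 6.69 CPM (-1.24, adjusted p = 1.32e-06). DUSP1 fell to 162.5 and 177.6 CPM (-0.89, adjusted p = 0.000941), a call lost under DESeq2's Wald test (adjusted p = 0.0656). DUSP7, an ERK phosphatase close to DUSP6, was the one that rose (log2 fold change 0.56), and PHLDA3 fell slightly (-0.29). SPRY1, DUSP2 and ETV1 had 0.81 to 4.18 CPM in every library and were not called.

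Of 19 core genes of the ERK cascade, 9 were lower and 3 higher, with a median log2 fold change of -0.19, and the 12 called genes of 19 are close to the 65.9% called over all tested genes. MAPK3, which encodes ERK1, had 103.3 and 90.3 CPM in WT and 42.4 and 37.6 CPM in HSF1-pLVX cells, a log2 fold change of -1.27 (standard error 0.0961, adjusted p = 3.57e-08). The MEK genes were not called, with log2 fold changes of 0.03 for MAP2K1 (95% confidence interval -0.15 to 0.22) and 0.17 for MAP2K2 (-0.03 to 0.37), although MAP2K2 was called higher with library size as the only normalization (adjusted p = 0.0328).

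Upstream of MEK, the adaptor gene GRB2 fell (log2 fold change -0.77), as did the exchange factor gene SOS2 (-0.75) and, by less, SHOC2 (-0.57) and PTPN11 (-0.39). RASA1, whose product switches RAS off, fell from 150.2 and 160.8 CPM to 75.4 and 60.2 CPM (-1.20, adjusted p = 1.85e-07). KSR1, a scaffold that holds RAF, MEK and ERK together, rose from 4.53 and 4.09 CPM to 15.2 and 15.2 CPM (1.82, adjusted p = 5.80e-08), and the adaptor gene SHC1 (0.47) and the RAS inactivator gene NF1 (0.22) rose as well. ARAF, BRAF, NRAS, SOS1 and HRAS were not called. Decreases thus included both activators and an inactivator of RAS.

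Of the growth factor receptor genes, 4 of 9 were lower and 3 higher, against 33.2% and 32.7% of all tested genes, with a median log2 fold change of -0.09. EGFR, the receptor of the EGF in the medium, rose from 391.7 and 339.8 CPM to 674.0 and 630.0 CPM (log2 fold change 0.83, adjusted p = 5.49e-06), while its partners ERBB2 (-1.13) and ERBB3 (-1.86) fell. FGFR3 rose most, from 2.61 and 2.10 CPM to 69.3 and 83.9 CPM (5.02, adjusted p = 5.33e-12). FGFR1 rose by 0.90 on the log2 scale, and FGFR2 (-0.37) and MET (-0.26) fell, both calls being lost with library size as the only normalization (adjusted p = 0.0744 and 0.0713).

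The list of other ERK output genes holds genes that ERK induces and also CIC, ELK1, ELK3, ETS1 and ETS2, transcription factors that ERK acts on. Of 17 tested genes, 9 were higher and 6 lower, with a median log2 fold change of 0.33, against 32.7% higher and 33.2% lower over all tested genes. The median is the value of ELK1, and the higher genes include ELK1, ETS1 and ETS2, so these figures do not describe the induced genes alone. CCND1, the cyclin that carries mitogen signals into the cell cycle, fell from 1900 and 1925 CPM to 245.8 and 199.3 CPM, a log2 fold change of -3.10 (standard error 0.123, adjusted p = 6.56e-11), larger than that of any of the 10 feedback genes. EPHA4 (-2.94) and LIF (-2.56) fell steeply, and EMP1 (-1.53), ERRFI1, a feedback inhibitor of the EGF receptor (-1.31), and EPHA2 (-0.34) fell by less.

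MYC, a growth-promoting transcription factor, rose from 80.5 and 89.9 CPM to 535.8 and 523.6 CPM, a log2 fold change of 2.64 (standard error 0.100, adjusted p = 4.26e-11). TFPI2, a protease inhibitor, rose from 13.3 and 15.1 CPM to 53.1 and 60.9 CPM. ETS2 (1.90) rose as well, and FOSL1 (0.82), HBEGF (0.43), ETS1 (0.34) and ELK1 (0.33) by less. EGR1 (1.46) and FOS (0.97), at 205.5 and 267.9 CPM and at 200.6 and 288.1 CPM in HSF1-pLVX libraries, were above both WT values but lost the call under DESeq2's Wald test (adjusted p = 0.0863 and 0.241). ELK1 lost it there too (adjusted p = 0.0716). DUSP4, SPRY2 and CCND1 thus fell in the same libraries in which DUSP6, PHLDA1, FOSL1 and MYC rose.

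**Figure D5:**
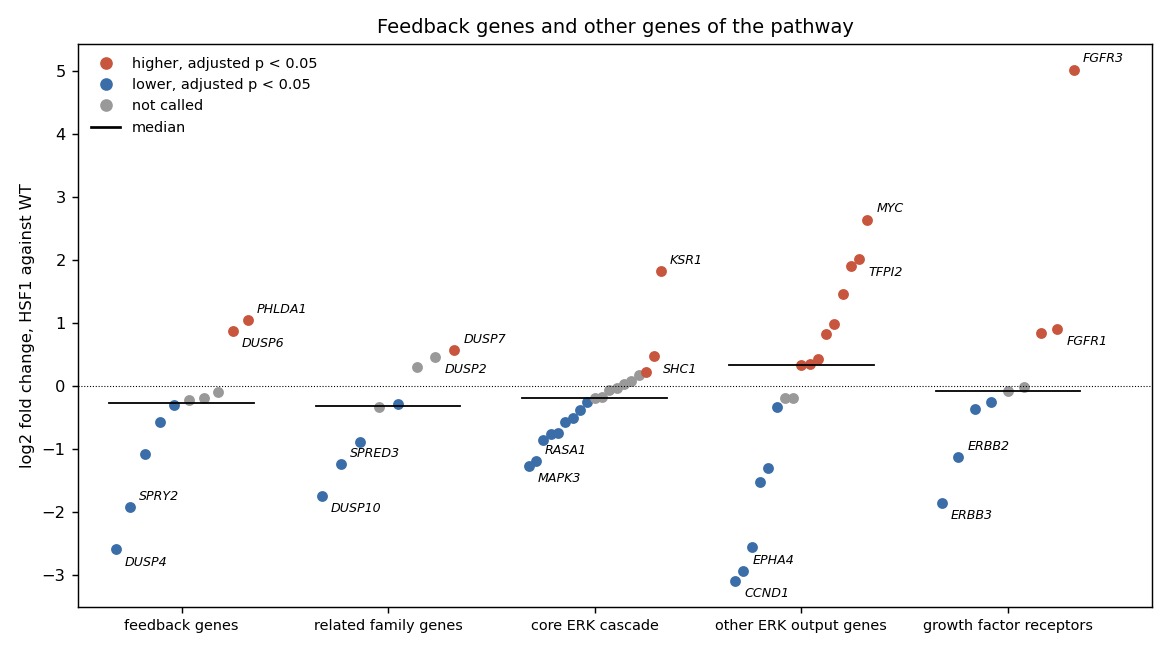
Log2 fold change in HSF1-pLVX against WT cells (y axis) of every tested gene in each list (x axis), sorted within a list; red is called higher, blue lower and grey not called at an adjusted p of 0.05, and the black line is the median of the list. The feedback genes run from DUSP4 at -2.60 to PHLDA1 at 1.05, and the other ERK output genes from CCND1 at -3.10 to MYC at 2.64.

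Of the 59 genes in these lists, 6 (DUSP8, DUSP16, SPRY3, PHLDA2, HRAS and IER3) stand on more than 1 line of the deposited normalized table, and the count table lists 5637 genes on contigs outside the main chromosomes. Reads of such genes could have been split between copies, so their low counts are uncertain, and all but HRAS failed the filter, as did DUSP9. Each of the 10 feedback genes stands on 1 line. The counted exons of 4 of them overlap those of 5 other genes. The overlap is 164 bases of ETV5 with DGKG on the same strand, 68 bases of ETV4 with DHX8 on the opposite strand, and 553 and 779 of the 8069 counted bases of PHLDA1 with PHLDA1-AS1 and PHLDA1-DT, which had at most 2 counts.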

How the data were processed

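RNA-seq libraries of MCF10A cells (2 WT, 2 HSF1-pLVX) were grouped by their titles. The authors deposited raw counts per gene, obtained from total RNA by HISAT2 2.0.5 alignment to hg38, SAMtools 1.13 and featureCounts 1.6.5 per the labels, with the counted exon length of each gene. Strand, overlap and multi-mapping settings are not given in the sources used here. A further table from the authors gives DESeq2 1.32.0 normalized values on a log2 scale by an unnamed transformation, used here for the ratio rule and an alternative.

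Symbols were paired with Ensembl identifiers by a reference table of gene names, which matched 57392 of the 63856 identifiers. Differences in counts were tested in R 4.3.3 by edgeR 4.0.16 (TMM, filterByExpr, quasi-likelihood test, Benjamini-Hochberg over 15830 genes, called at 0.05). Standard errors come from the quasi-likelihood F statistic. The fit had no replicate block, because no source says that a number marks a shared culture, and with the block the prior degrees of freedom were infinite. The correlation of same-numbered deviations was 0.00014 over all tested genes. The labels do not say that replicates are separate cultures, while the study calls them biological. If they are not, p-values measure technical spread.

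CPM per kilobase divides CPM by counted length. The named genes are all 10 feedback genes, HSF1, overlapping genes and, in each other list, every call with full values for the 3 largest and for named kinases of the cascade, apart from a few items not reported here; values of further list genes were added after they were seen. Members and lists were chosen with earlier results of these data known. Alternatives covered normalization, filter, test (DESeq2 1.42.0), block, threshold, the deposited values and each library left out. The test was also run on simulated counts in which few genes changed, unlike in these data, and the outcome is not reported here. Promoter windows are from RefSeq (GRCh38.p14).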

Additional observations from a re-analysis of the deposited data

How the results depend on the processing

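The direction and the call of HSF1, DUSP4, DUSP6, SPRY2, SPRY4, ETV4, ETV5 and PHLDA1 were kept under the 9 refits of the counts, which changed normalization, filter, test or block or left out a library. With a library left out, the log2 fold change ranged from -0.31 to 0.13 for DUSP5 and from -0.33 to -0.13 for SPRED1. For SPRED2 it ranged from -0.34 to -0.28. The calls of these genes changed in some of these fits. The lone library of a variant was then assumed to vary like the other variant, so p-values there are not on the footing of the main fit. Of the 10 feedback genes, 1 was higher and 3 were lower when a 2-fold change was required as well, which is stricter by construction. Under the ratio rule on the deposited values, a different criterion that uses no p-value, 0 were up and 2 down. With the replicate block, 2 feedback genes were higher and 5 lower as without it, DUSP5 had a log2 fold change of -0.09, and over all genes 5138 were higher and 5171 lower. The block ended the calls of MET (adjusted p = 0.054) and NF1 (adjusted p = 0.0507) and of no other gene in the core cascade and receptor lists. DESeq2's Wald test, run without the filter on low counts, called 2 relatives of the feedback genes higher, DUSP7 and DUSP16, and called DUSP8 lower. DUSP16 had 2 and 1 counts in WT and 12 and 22 in HSF1-pLVX libraries. DUSP8 had 2 and 18 counts in WT and 0 and 0 in HSF1-pLVX libraries. Library size as the only normalization left 2 receptor genes lower, ERBB2 and ERBB3, and moved the median over all tested genes from 0.02 to 0.08 (log2). The cause of these changes was not tested. DUSP5, SPRED1 and ETV5 were not called, and their intervals, not the absence of a call, limit the size of any change.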

Other observations

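Transcripts beside the feedback genes were also measured. SPRY4-AS1, a noncoding gene that runs opposite to SPRY4 without sharing counted bases with it, had 19 and 25 counts in WT and 6 and 6 counts in HSF1-pLVX replicates 1 and 2, or -2.12 on the log2 scale (standard error 0.420). DGKG, a diacylglycerol kinase gene next to ETV5 on the same strand, had 64 and 64 counts in WT and 9 and 14 counts in HSF1-pLVX libraries (log2 fold change -2.72, standard error 0.331), while ETV5 itself was not called. SPRY4-AS1 and DGKG passed the low-count filter only through the WT libraries, where they were higher, so no p-value is given for them. DHX8, which meets ETV4 on the opposite strand, had a log2 fold change of 0.05 (adjusted p = 0.648 by edgeR).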
